A study of Rattus norvegicus with 12 samples.

Results

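Tissue that had grown around a β-tricalcium phosphate (β-TCP) scaffold was compared with tissue around a hydrogel scaffold in a bone defect of the rat. The comparison takes the 6 libraries whose labels name one of these scaffolds, 3 of each, out of 12 libraries in the series, and covers all 12633 genes that reached 1 FPKM in at least 3 of the 12 libraries, out of 22601 genes listed. In the study, a hole was drilled into the lateral femoral condyle of Sprague Dawley rats 8 weeks old, a 3D printed scaffold was placed in it, and RNA of the tissue in the defect was sequenced 2 weeks later. The hydrogel was gelatin methacryloyl, a light-cured gelatin that cells can degrade, and β-TCP is a brittle calcium phosphate ceramic that was printed and sintered. The other 6 libraries, 3 of defects left empty (control) and 3 of defects with a polycaprolactone (PCL) scaffold, enter the fit for its estimate of the spread and are described at the end. All groups were of the same strain, and the labels name no transgene, drug or other agent. The methods speak of independent samples in each group, but neither they nor the labels tie each library to a rat of its own, so p-values measure the spread between these libraries, which may be in part technical.

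Bone is resorbed by osteoclasts, multinucleate cells that fuse from precursors of the monocyte and macrophage lineage under the cytokines CSF1 and RANKL. They seal off a patch of mineral, acidify it with a vacuolar proton pump (V-ATPase) and digest the exposed collagen with the protease cathepsin K. Macrophages that meet solid material fuse in a related way into foreign body giant cells. The marrow that surrounds such a defect makes red cells, granulocytes, platelets and B cells from dividing precursors. The RNA is from whole tissue, so that fewer cells of a type and less RNA per cell cannot be told apart.

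FPKM are fragments per kilobase of gene, scaled to the mapped fragments of each library, and differences are given as β-TCP minus hydrogel on the log2(FPKM + 1) scale, where 1 stands for about 2-fold and low genes are understated. The 6 libraries held 15036447 to 16990219 fragments. β-TCP replicates 2 and 3 were nearly alike: their fragment counts differed by a mean chi-square of 2.18 per gene, against 31.9 to 318 for the other pairs within a group. That is more than counting noise in the mean, and they were kept as 2 libraries. Calls with their average as 1 library are given over all genes and for some gene lists. Elsewhere the p-values and standard errors count them as 2 libraries. Hydrogel replicate 3 stood farthest out on the first principal component of the 6 libraries, which held 78.0% of their variance, at -58.7 against -28.0 and -14.4 for hydrogel replicates 1 and 2. β-TCP replicate 1, at 16.2, lay nearer to the hydrogel libraries than replicates 2 and 3, at 42.2 and 42.7. Hemoglobin genes took 18.0%, 10.01% and 19.0% of all FPKM in the hydrogel libraries and 7.41%, 3.65% and 3.49% in the β-TCP libraries. These groups did not overlap (15.7% ± 4.91 against 4.85% ± 2.22, SD, n = 3 each; two-sided exact permutation p = 0.1, the smallest that 3 against 3 allows). Leaving the hemoglobin genes out of the total lowered the median difference of all genes from -0.06 to -0.21.

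At an adjusted p under 0.05, 653 of the 12633 genes rose in β-TCP (5.17%) and 122 fell (0.966%), and for each of these 775 genes the 3 β-TCP libraries lay wholly on one side of the 3 hydrogel libraries. Over all genes, 23.0% were higher and 34.5% lower in each β-TCP library than in each hydrogel library. The threshold of the study's methods, an unadjusted p under 0.05 with more than a 2-fold change, called here the fold rule, gave 425 higher genes (3.36%) and 634 lower genes (5.02%). The adjusted count rested on a few libraries. With β-TCP replicates 2 and 3 averaged, 16 genes rose and 0 fell at the adjusted p (1407 higher and 1124 lower genes had an unadjusted p under 0.05, and limma-voom with both libraries called 85 lower genes), and the fold rule gave 346 higher (2.74%) and 370 lower genes (2.93%). Leaving out β-TCP replicate 2 or 3 left 7 and 15 adjusted calls, leaving out hydrogel replicate 1 or 3 left 228 and 114, and leaving out PCL replicate 2 left 428. Control replicate 3, which lay far from the other libraries and enters through the shared spread, acted the other way: without it 1852 genes were higher and 2884 lower, and without control replicate 2 there were 1967 calls in all. Of the 42 gene lists below, 28 had at least 1 adjusted call, against 14 without hydrogel replicate 1 and 12 without hydrogel replicate 3. Without β-TCP replicate 3 or with the pair averaged 5 lists had a call, and without β-TCP replicate 2, 0 did. With the pair averaged these 5 were the macrophage, V-ATPase, immediate early gene, protease and cholesterol synthesis lists, with 1 call each. Counts of calls in a list stand against 5.17% higher and 0.966% lower of all genes. By the fold rule they stand against 3.36% and 5.02%, and counts of separate libraries against 23.0% and 34.5%. At an unadjusted p under 0.05 by limma, 2039 of the 12633 genes were higher and 2301 lower, so such counts in a list are common among all genes too. The split also moved with the scaling. Of the adjusted calls 84.3% were higher in β-TCP, against 72.0% after median-of-ratios scaling and 64.2% after quantile normalization, and of the fold rule's calls 40.1% were higher, against 24.0% with hemoglobin left out of the total. In a fit of the 6 compared libraries alone the adjusted split turned, with 1605 genes higher and 2646 lower (37.8% higher).

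**Figure D1:**
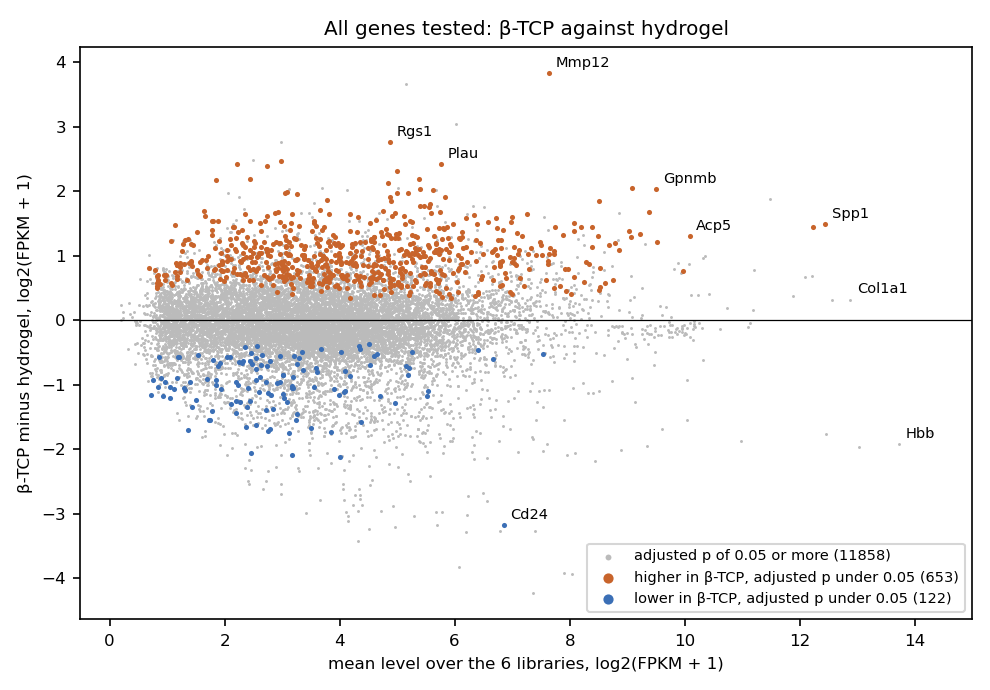
Each point is a gene, with its mean level over the 6 libraries on the x axis and the β-TCP minus hydrogel difference on the y axis, both as log2(FPKM + 1). Orange points (653) rose and blue points (122) fell at an adjusted p under 0.05, and many grey points below -1 did not pass it.

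**Figure D2:**
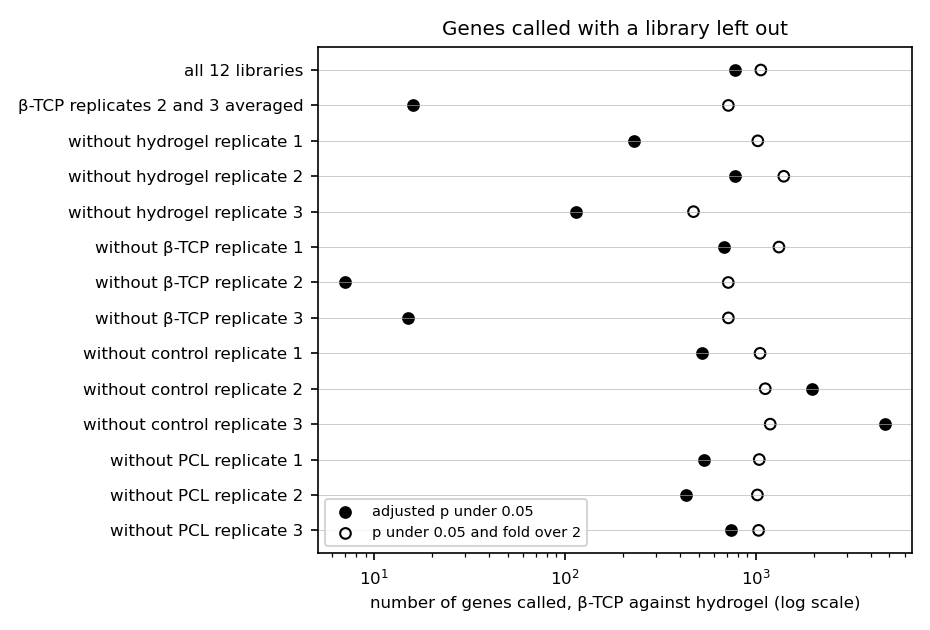
The number of genes called is shown on a log scale for the fit of all 12 libraries, with β-TCP replicates 2 and 3 averaged, and without each library. Filled points (adjusted p under 0.05) range from 7 to 4736, open points (fold rule) from 470 to 1397.

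β-TCP replicate 1 was then set apart from the near-identical pair. It lay above all 3 hydrogel libraries in 30.8% of all genes and below them in 41.8%, and did so in the direction of the call for all 775 genes with an adjusted call, which the separation of the libraries already implies. The size was smaller: the genes that rose had a median difference of 0.82 in replicate 1 and 1.0 in replicates 2 and 3, and those that fell -0.79 and -1.05. Of the 653 genes that rose, 226 passed 2-fold in replicate 1 and 326 in the mean of replicates 2 and 3, and of the 122 that fell, 34 and 64. Medians of gene groups are given in the same way. For osteoclast genes the median difference was 1.22 in replicate 1 and 1.17 in replicates 2 and 3, and for V-ATPase subunits 1.13 and 1.06. For macrophage genes it was 0.55 and 1.41, for lipid uptake and efflux 0.35 and 1.6, and for the interleukin 1 and cytokine list 0.06 and 0.74. For cartilage genes the signs were opposite, with 1.28 in replicate 1 and -0.78 in replicates 2 and 3. Col2a1, the fibrillar collagen of cartilage, was at 47.4, 32.6 and 448 FPKM in hydrogel and 526, 46.7 and 46.5 FPKM in β-TCP replicates 1, 2 and 3. The high libraries were 1 of each scaffold, hydrogel replicate 3 and β-TCP replicate 1, and the groups overlapped. With 1 library on one side, none of these differences between replicates has a test.

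**Figure D3:**
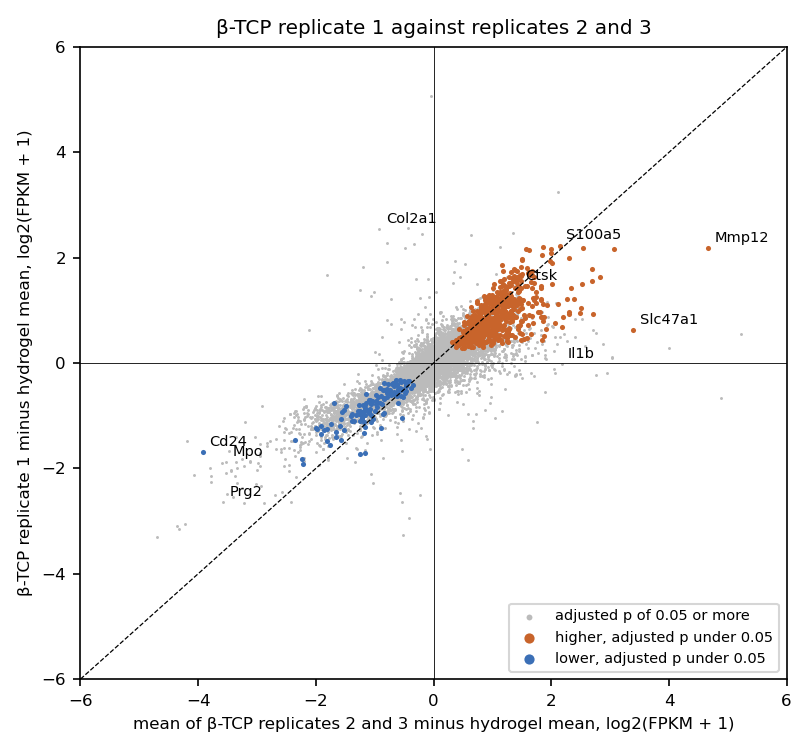
Each point is a gene, placed by the difference from the hydrogel mean in the mean of β-TCP replicates 2 and 3 (x axis) and in β-TCP replicate 1 (y axis), on the log2(FPKM + 1) scale, with the line of equal difference dashed. Called genes lie on the same side of 0 in both, Mmp12 and Slc47a1 far below the line, S100a5 on it, and Col2a1 on opposite sides.

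The 16 genes that passed with replicates 2 and 3 averaged all rose, and were named after their values were seen where the rule for named genes does not hold them. They were Plau, Vsig4, S100a5, Maff, Egr1, Rnd1, Clec2d, Cym, Gdf15, Insig1, Etv4, Atp6v1e1, Mrps6 and the unnamed loci LOC108352087, LOC103690063 and LOC100360087. With the pair averaged, their adjusted p by limma ran from 0.017 (LOC108352087) to 0.0492. Most were at 0.0492, just under the threshold, among them Plau, Vsig4, Egr1, Rnd1, Clec2d, Insig1, Atp6v1e1 and Mrps6. S100a5, Vsig4, Cym, Etv4 and LOC108352087 were under 1 FPKM in every hydrogel library and above it in every β-TCP library. They could meet the filter of 1 FPKM in 3 libraries through β-TCP alone, so their calls are not independent of it. The added 1 also narrows the spread of such low hydrogel values. S100a5, a calcium-binding protein of the S100 family, stood at 0.262, 0.662 and 0.0578 FPKM in the hydrogel libraries and 5.11, 4.55 and 4.99 FPKM in the β-TCP libraries. All 3 β-TCP values exceeded every hydrogel value, replicate 1 the highest of them, and the difference was 2.17 ± 0.19 (SE; limma, adjusted p = 0.0019, and 0.019 with the pair averaged). Maff encodes a small Maf transcription factor, and rose by 1.96 ± 0.19 (SE), from 2.51, 4.3 and 2.11 FPKM to 13.9, 13.8 and 14.6 FPKM. Gdf15, a stress-induced cytokine of the TGF-β superfamily, went from 3.63, 3.97 and 3.79 FPKM to 13.9, 10.5 and 10.8 FPKM, with a difference of 1.4 ± 0.16 (SE). In both, the spread within a scaffold was small beside the step between them, and replicate 1 was not the lower of the β-TCP libraries for Gdf15. Cym, the gene of the milk-clotting protease chymosin, rose from 0.719, 0.909 and 0.688 FPKM to 4.59, 3.53 and 4.38 FPKM.

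Among the genes with the largest increases at the adjusted p were secreted proteases, chemokines and macrophage receptors. Mmp12, macrophage elastase, was at 13.9, 44.9 and 11.3 FPKM in the hydrogel libraries and at 91.4, 516 and 514 FPKM in the β-TCP libraries. It was the largest increase (3.84 ± 0.68, SE; adjusted p = 0.015), but β-TCP replicate 1 lay far below replicates 2 and 3, and without hydrogel replicate 3 the adjusted p was 0.07. Plau, the urokinase plasminogen activator, was at 17.1, 23.8 and 9.47 FPKM and 75.5, 95 and 98.5 FPKM. Here the 3 β-TCP libraries were close together and all far above hydrogel (2.43 ± 0.28, SE; limma, adjusted p = 0.0068, and 0.049 with the pair averaged). Rgs1, which dampens chemokine receptor signaling through G proteins, rose by 2.76 ± 0.40 and the complement receptor Vsig4 of resident macrophages by 2.43 ± 0.31 (SE), the latter from under 1 FPKM in each hydrogel library. Slc47a1, an exporter of organic cations, was 1.86, 18.5 and 18.5 FPKM in β-TCP against 0.599, 1.24 and 0.779 FPKM in hydrogel, so that replicate 1 lay slightly above the highest hydrogel library and replicates 2 and 3 were far above it (difference 2.47). Cyr61, a matricellular protein, rose by 2.19 ± 0.30, the metallothionein Mt3 by 2.05 ± 0.37, and Tm4sf19, a tetraspanin-like membrane protein of osteoclasts, by 2.03 ± 0.30 (SE). Lyc2, a lysozyme, rose by 2.02, but shares sequence with Lyz2, which was at 0.69 and did not pass the test, and the authors' assignment of reads between such copies is not known.

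Osteoclast genes were higher around β-TCP throughout the resorption program. Of 20 measured members of the list, 17 rose at the adjusted p and 0 fell (against 5.17% and 0.966% of all genes). In each β-TCP library 19 were higher than in each hydrogel library (23.0% of all genes were). The median difference was 1.15 against -0.06 over all genes. Their summed level was 5602, 6418 and 3564 FPKM in hydrogel and 11492, 10902 and 10940.4 FPKM in β-TCP. In signaling, Tnfrsf11a (RANK, the receptor of RANKL) was at 13.8, 18.7 and 8.03 FPKM in hydrogel and 35.4, 31.6 and 31.6 FPKM in β-TCP, so that even its lowest β-TCP library was well above the highest hydrogel library (1.29 ± 0.26, SE; adjusted p = 0.021). Nfatc1, the master transcription factor of osteoclasts, rose by 0.98 ± 0.20, and Calcr, the calcitonin receptor by which the hormone halts resorption, by 1.6 ± 0.24 (SE). Rcan2 and Rcan1, which regulate the phosphatase calcineurin that activates NFAT, rose by 1.8 ± 0.32 and 1.3 ± 0.23, which with Nfatc1 were 3 of 11 members of the calcineurin and NFAT list. Among the genes of fusion and resorption, Siglec15, a sialic acid receptor needed for osteoclast maturation, was at 26.4, 31.3 and 11.7 FPKM in hydrogel and 87.1, 61.8 and 63.3 FPKM in β-TCP. Ctsk, cathepsin K, was at 2706, 3693 and 1614 FPKM and 6919.6, 6883 and 6866 FPKM, and Acp5, the tartrate-resistant acid phosphatase by which osteoclasts are stained, at 757, 830.5 and 367 FPKM and 1534, 1503 and 1525 FPKM. For all 3 genes hydrogel replicate 3 was the lowest library and the β-TCP libraries lay together, with replicate 1 at or above the pair. Their differences were 1.66 ± 0.32, 1.45 ± 0.29 and 1.31 ± 0.28 (SE), with adjusted p of 0.02, 0.021 and 0.027. Jdp2, an AP-1 repressor needed for osteoclast formation, rose by 1.45. The members that did not pass were Csf1r (0.90, adjusted p = 0.052), Mmp9 (1.18) and Car2 (-1.26), the carbonic anhydrase that red cells share; the last 2 are named here after their values were seen.

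**Figure D4:**
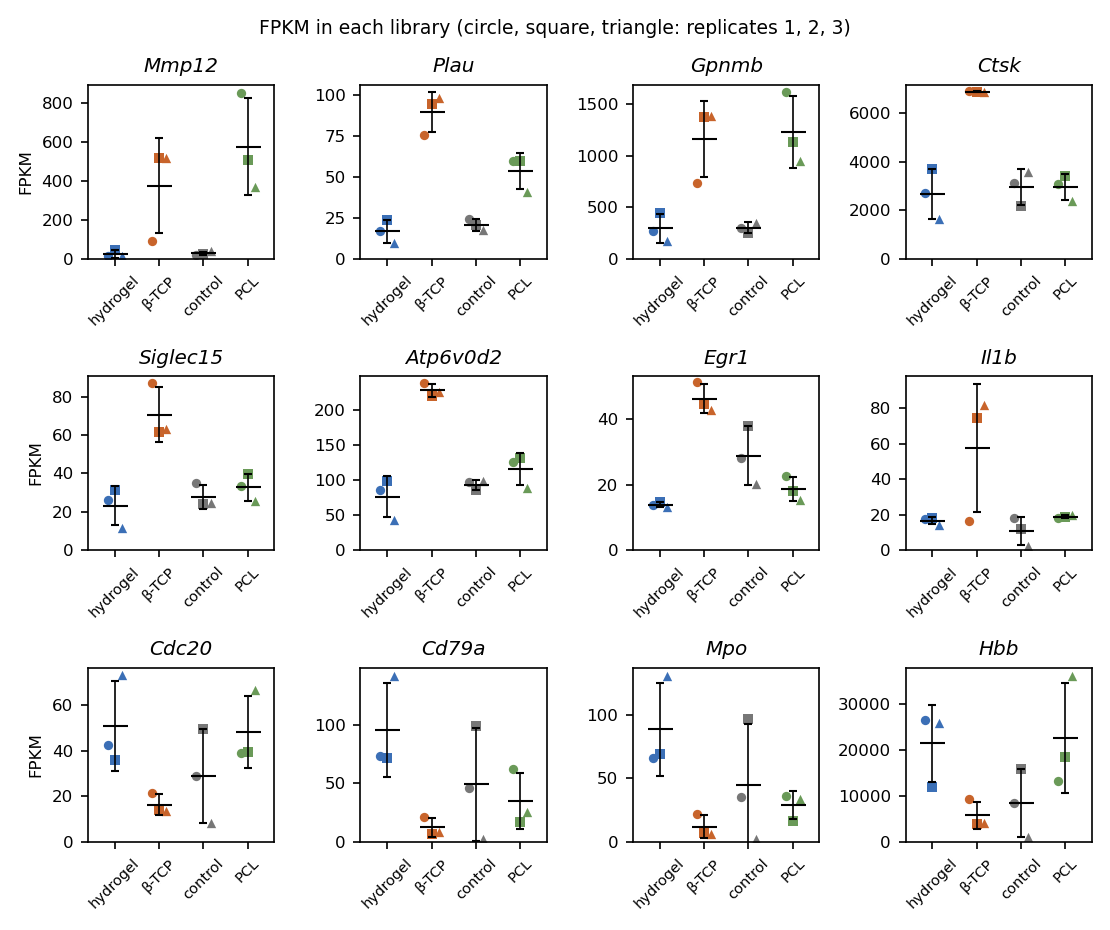
FPKM of 12 genes are plotted by group, with circles, squares and triangles for replicates 1, 2 and 3, and bars for the mean ± SD of 3 libraries. In the top 2 rows the β-TCP libraries lie above the hydrogel libraries except for replicate 1 of Il1b, and in the bottom row they lie below them.

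V-ATPase subunits, which form the proton pump of lysosomes and of the osteoclast border, rose almost as a whole: 15 of 17 at the adjusted p, 0 fell, and the median difference was 1.11. Atp6v0d2, the subunit d2 enriched in osteoclasts, was at 86.4, 99.3 and 43.6 FPKM in hydrogel and 239, 219.9 and 225 FPKM in β-TCP. Other members rose too, with all β-TCP libraries above all hydrogel libraries. Atp6v1b2 rose by 1.45 ± 0.20, the accessory protein Atp6ap2 by 1.44 ± 0.19 and Tcirg1, the osteoclast a3 subunit, by 1.24 ± 0.25 (SE). The 2 that did not pass were Atp6v0a1 (0.02) and Atp6v0d1 (0.32), paralogs of Tcirg1 and Atp6v0d2 and named after their values were seen. Without hydrogel replicate 3, 5 osteoclast genes and 12 V-ATPase subunits still passed, with the pair averaged 0 and 1, without β-TCP replicate 2, 0 and 0, without β-TCP replicate 3, 0 and 1, and without hydrogel replicate 1, 8 and 13. The medians without hydrogel replicate 3 were 0.89 and 0.91, and by the fold rule 5 of each list then passed, against 16 and 13 with it. With hemoglobin out of the total 14 and 14 passed.

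The first sequence shown is the start of Clcn7, the chloride channel that balances the proton pump and rose by 1.09 (shown for its motifs, after its values were seen). RefSeq promoters of build GRCr8 are printed 5′ to 3′ on the strand of the gene as the 150 bases before its start, with motifs in capitals. In Clcn7 (chr10:14656111-14656260, + strand) the capitals mark an E-box (CACGTG) and an M-box (TCATGTGA), the site bound by MITF and TFE factors, 34 and 13 bases before the start.
Clcn7: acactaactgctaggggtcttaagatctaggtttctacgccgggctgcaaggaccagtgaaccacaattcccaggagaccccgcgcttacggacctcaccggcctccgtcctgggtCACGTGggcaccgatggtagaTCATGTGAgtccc

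Macrophage genes were higher as well, with a wider spread. Of 25 members 12 rose at the adjusted p and 0 fell, and the median difference was 1.0. All β-TCP libraries lay above all hydrogel libraries for 17 members (23.0% of all genes). The defining marker Cd68, a lysosomal glycoprotein, was at 187, 229 and 128 FPKM in hydrogel and 389, 527 and 544 FPKM in β-TCP (1.44 ± 0.25, SE; adjusted p = 0.013). Gpnmb, a glycoprotein of lipid-laden macrophages and osteoclasts, was at 269.7, 442 and 169 FPKM and 732, 1373 and 1381 FPKM. Its β-TCP replicate 1 lay well below the pair yet exceeded every hydrogel library (2.03 ± 0.36, SE). The scavenger receptor Msr1 rose by 2.12 ± 0.40 with the same order of libraries, at 17.1, 60.3 and 62.4 FPKM in the β-TCP libraries against 6.65, 11.7 and 7.75 FPKM in hydrogel. Csf1r, the receptor of CSF1 on all monocytes and macrophages, missed the threshold at 0.90 ± 0.24 (SE; adjusted p = 0.052). Cd163, the scavenger receptor for hemoglobin, was the exception in direction at -1.66, lower by the fold rule and named after its values were seen. Leaving out 1 library gave 0 (β-TCP replicate 2) to 21 (control replicate 3) macrophage genes at the adjusted p, with 1 without hydrogel replicate 3 or β-TCP replicate 3, 2 without hydrogel replicate 1 and 7 without control replicate 1 or PCL replicate 1 or 2. With the pair averaged 1 passed. The fold rule gave 12 with all libraries, without hydrogel replicate 3 and with the pair averaged.

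Lysosomal enzymes and membrane proteins were higher as a group: all 37 had a positive difference and 21 passed, with a median of 0.87. Separate libraries on the higher side were seen for 32 (23.0% of all genes). Lgmn, the asparaginyl protease legumain, was at 155, 169 and 90.2 FPKM in hydrogel and 232, 485 and 488 FPKM in β-TCP. The cathepsins Ctsd and Ctsz rose by 1.38 ± 0.24 and 1.29 ± 0.19 and the α-galactosidase Gla by 1.43 ± 0.21 (SE). Replicate 1 reached 1.37 for Gla but 0.79 for Lgmn, against 1.46 and 1.86 in the pair. In lipid handling, 6 of 19 genes rose and 0 fell. Abca1, which exports cholesterol, was at 12.5, 16.1 and 7.86 FPKM in hydrogel and 35.1, 50 and 50.3 FPKM in β-TCP, each β-TCP library at more than 2 times the highest hydrogel library (1.84 ± 0.24, SE). Trem2, a lipid-sensing receptor of macrophages and osteoclast precursors, rose by 1.91 ± 0.39, and Lpl, lipoprotein lipase, by 1.63 ± 0.36 (SE). Without hydrogel replicate 3, 4 lysosomal and 1 lipid gene passed, and with the pair averaged or without β-TCP replicate 2 or 3, none. Without hydrogel replicate 1, 9 lysosomal genes passed, and without control replicate 3, 33.

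The promoters of Gpnmb and Mmp12 are shown because both hold the AP-1 site (TGANTCA), in Gpnmb (chr4:79340978-79341127, + strand) with an M-box in addition, read here on the other strand, and in Mmp12 (chr8:12866502-12866651, + strand) with an E-box (CACGTG) 126 bases before the start. In both the AP-1 site begins 87 bases before the start.
Gpnmb: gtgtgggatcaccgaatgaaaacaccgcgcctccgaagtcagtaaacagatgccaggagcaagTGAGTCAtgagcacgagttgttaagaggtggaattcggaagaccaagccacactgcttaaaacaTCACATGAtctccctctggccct
Mmp12: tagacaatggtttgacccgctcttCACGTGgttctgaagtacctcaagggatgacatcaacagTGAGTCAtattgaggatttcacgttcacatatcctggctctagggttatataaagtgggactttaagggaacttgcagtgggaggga

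**Figure D5:**
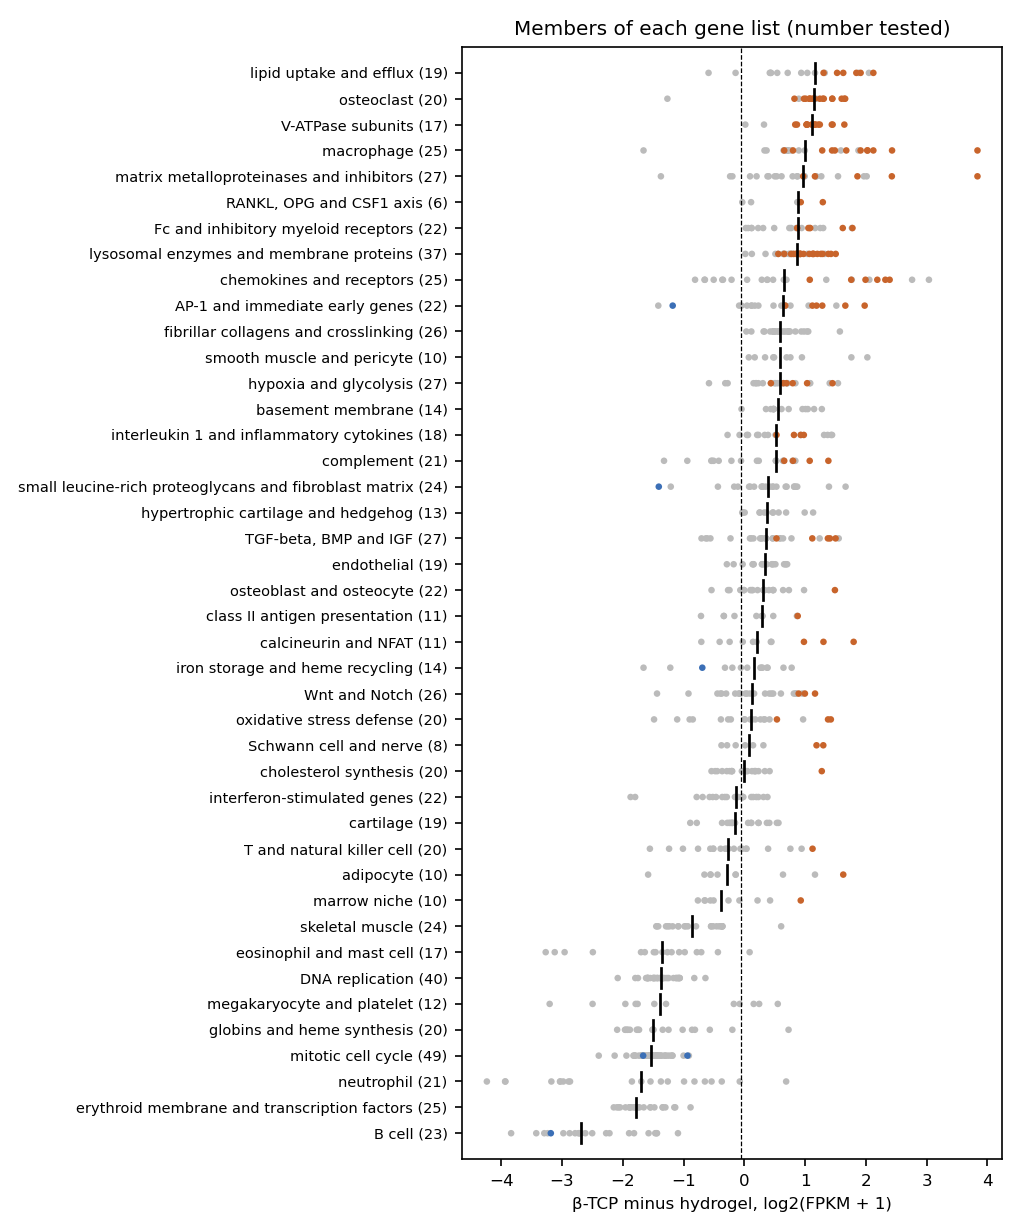
Each row is a gene list with its number of tested members, each point a member at its β-TCP minus hydrogel difference on the log2(FPKM + 1) scale, and the black bar the list's median (dashed line, median of all genes). Orange and blue points rose or fell at an adjusted p under 0.05. Osteoclast, V-ATPase and lysosomal lists lie to the right with many orange points, and cell cycle and marrow lists lie to the left with few blue ones.

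Attractants of monocytes and neutrophils were among the chemokines that were higher. Of 25 chemokines and receptors, 6 rose and 0 fell (against 5.17% and 0.966% of all genes). The list was mixed, with 18 differences above 0 and 7 below. All β-TCP libraries lay above all hydrogel libraries for 8 members and below them for 4 (23.0% and 34.5% of all genes). With β-TCP replicates 2 and 3 averaged 0 members passed the adjusted p. The monocyte attractant Ccl2 was at 11.1, 12.2 and 5.29 FPKM in hydrogel and 28.7, 65.2 and 62.8 FPKM in β-TCP, and the neutrophil attractant Cxcl1 at 2.07, 1.43 and 0.143 FPKM and 5.99, 11.2 and 13.3 FPKM. In each the lowest β-TCP library was replicate 1, still over 2 times the highest hydrogel library (2.32 ± 0.36 and 2.39 ± 0.40, SE). Ccl12 and Ccl7, close relatives of Ccl2, rose by 2.19 ± 0.36 and 1.99 ± 0.44 (SE). Among cytokines, 4 of 18 rose and 0 fell: Lif by 0.98 ± 0.24, Csf1 by 0.93 ± 0.24, Il6 by 0.82 ± 0.19 and Tgfb1 by 0.53 ± 0.12 (SE), with Il6 at or below 1.22 FPKM in every library. Il6 may thus have met the filter of 1 FPKM in 3 libraries through β-TCP alone, where it was high. Its call would then depend on that filter. Il1b, the cytokine interleukin 1β, was at 17.6, 17.9 and 14.3 FPKM in hydrogel and 16.2, 74.8 and 81.9 FPKM in β-TCP. Replicates 2 and 3 were over 4 times the hydrogel level while replicate 1 was within its range, and the difference did not pass the test (1.44 ± 0.68, SE; adjusted p = 0.16). Its receptor Il1r1 was apart in all libraries, at 4.34, 4.74 and 2.84 FPKM and 5.36, 10.3 and 10.3 FPKM, and just missed the threshold (adjusted p = 0.058), while Il1a was under the filter on low values.

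Receptors of myeloid cells and complement genes gave fewer calls. Of 22 Fc and inhibitory receptors, 5 rose and 0 fell, with a median of 0.88. The C-type lectins Clec4e and Clec4a rose by 1.78 ± 0.40 and 1.62 ± 0.25 and Tyrobp (DAP12), an adaptor of myeloid receptors that osteoclasts need, by 1.08 ± 0.22 (SE). Clec4a1, a close relative of Clec4a, rose by 1.05. Of 21 complement genes 4 rose and 0 fell, among them the receptor C3ar1 (1.38 ± 0.29, SE) and the macrophage-made C1qa and C1qc (0.80 and 0.66), while 8 of the 21 had a negative difference. Class II antigen presentation had 1 of 11 genes higher, against 5.17% of all genes: the lysosomal reductase Ifi30 (0.88 ± 0.23, SE). Interferon-stimulated genes gave no call (0 of 22 by limma at the adjusted p, 0 at an unadjusted p under 0.05, 0 with limma-voom), with a median of -0.13. Their 2 most abundant members were Ifi27 (0.23) and Bst2 (0.11, which turned to below 0 with hemoglobin out of the total).

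Immediate early genes, the first to be transcribed after a stimulus, were in part higher: 6 of 22 rose and 1 fell. Fos, a subunit of AP-1 needed for osteoclast formation, was at 8.3, 25.8 and 6.86 FPKM in hydrogel and 45.8, 49.2 and 50.3 FPKM in β-TCP. The hydrogel libraries spread widely, with replicate 2 highest, and the β-TCP libraries lay together above them (1.98 ± 0.38, SE; adjusted p = 0.019). Egr1 was at 13.8, 14.8 and 13.2 FPKM and 51.3, 44.8 and 42.7 FPKM, with both groups narrow (1.66 ± 0.21, SE; adjusted p = 0.0071, and 0.049 with the pair averaged). Junb rose by 1.28 ± 0.22 and Egr2, at most 3.13 FPKM in these libraries, by 1.19 ± 0.21 (SE). The member that fell was Klf2, a transcription factor of quiescent cells (-1.18), named after its values were seen. This list was drawn in part from genes the study named on these samples, so its direction is not independent of them.

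Proteases and their inhibitors had 5 of 27 genes higher and 0 lower, with a median of 0.97: beside Mmp12 and Plau, the tissue plasminogen activator Plat rose by 1.86 ± 0.43, the aggrecanase Adamts4 by 1.16 ± 0.27 and the urokinase receptor Plaur by 0.97 (the last named after its values were seen). Among growth factors of the TGF-β, BMP and IGF families 5 of 27 rose and 0 fell. The bone morphogenetic protein Bmp2, which drives osteoblast differentiation, was at 2.61, 2.46 and 1.6 FPKM in hydrogel and 8.34, 7.82 and 7.94 FPKM in β-TCP. Each β-TCP library lay well above every hydrogel library (1.5 ± 0.24, SE; adjusted p = 0.011). The TGF-β receptors Tgfbr1 and Tgfbr2 rose by 1.41 ± 0.19 and 1.12 ± 0.20 and the IGF carrier Igfbp3 by 1.37 ± 0.29 (SE). Of 26 Wnt and Notch genes 3 rose, against 5.17% of all genes. These were the ligand Wnt5a by 1.16 ± 0.26, the Wnt antagonist Sfrp4 by 1.0 ± 0.17 and the Notch ligand Jag1 by 0.89 ± 0.21 (SE). The median of the Wnt and Notch list, 0.13, turned to just under 0 with hemoglobin left out. Csf1 and Tnfrsf11a were the 2 of 6 genes of the RANKL, OPG and CSF1 axis that rose.

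Bone and matrix genes gave few calls. Of 22 osteoblast and osteocyte genes 1 rose, a share near that of all genes (5.17%): Spp1 (osteopontin, made by osteoblasts, osteoclasts and macrophages), at 3631, 4178 and 1539 FPKM in hydrogel and 8896, 7614 and 7658 FPKM in β-TCP (1.49 ± 0.38, SE; adjusted p = 0.045). Col1a1, the main collagen of bone, was at 8946, 8401 and 3635 FPKM and 8537, 7852 and 7887 FPKM, and Bglap, the osteoblast product osteocalcin, at 662, 520.1 and 225 FPKM and 394, 252 and 253 FPKM. In both the groups overlapped and the low hydrogel library was replicate 3. No fibrillar collagen or crosslinking gene passed (0 of 26 by limma and 0 with limma-voom). At an unadjusted p under 0.05, 6 were higher, as were 2039 of all 12633 genes. All 26 differences were above 0 with a median of 0.59, which fell to 0.26 without hydrogel replicate 3. The values of Col3a1 were 621, 1069 and 538 FPKM against 829, 1390.2 and 1404 FPKM. Keratocan (Kera), a small leucine-rich proteoglycan, was the 1 of 24 members of its list that fell (-1.41 ± 0.35, SE). The basement membrane list gave 0 of 14 by limma (7 higher at an unadjusted p under 0.05; 0 with limma-voom), with Col4a1 at 1.15 ± 0.37 and Nid1 at 0.48 ± 0.25 (SE), and its median was 0.55. Cartilage (0 of 19; 0 higher and 1 lower at an unadjusted p under 0.05) and hypertrophic cartilage (0 of 13; 3 higher and 0 lower) gave no call by limma, nor did limma-voom. Acan, the large proteoglycan of cartilage, was at 11.6, 18.2 and 37.7 FPKM and 49.5, 18.6 and 19.5 FPKM, and followed Col2a1 in which libraries were high. Col11a1 was at 0.12, and turned to below 0 with hemoglobin out of the total, Mmp13 at 0.99 and Alpl at 0.47.

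Vessel and other stromal genes gave few calls. None of 19 endothelial genes passed by limma (6 higher at an unadjusted p under 0.05; 0 with limma-voom), and Pecam1 and Cdh5 were at -0.18 ± 0.22 and 0.48 ± 0.22 (SE). Eng and Tie1 lay at 0.68 and 0.45. In the smooth muscle and pericyte list (0 of 10; 4 higher at an unadjusted p under 0.05; 0 with limma-voom), Acta2, smooth muscle actin, was at 11, 22.2 and 16.2 FPKM in hydrogel and 23.9, 109 and 117 FPKM in β-TCP, so that it was high in replicates 2 and 3 and just above the highest hydrogel library in replicate 1. Tagln had the same form, with 0.49 in replicate 1 and 2.40 in the pair, and Rgs5, a pericyte marker, was at 0.95 and Myh11 at 0.48. The adipocyte list had 1 of 10 members higher (5.17% of all genes were), the shared gene Lpl. Its defining markers Adipoq and Plin1 were at -0.56 and -0.55. Of 8 Schwann cell and nerve genes 2 rose, Ncam1 (1.3 ± 0.26, SE) and Egr2, both of them also made outside nerve, while Sox10, which marks Schwann cells, stayed at or under 0.25 FPKM in the 6 libraries, and the list's median of 0.08 turned with hemoglobin left out. In skeletal muscle genes (0 of 24; 1 lower at an unadjusted p under 0.05; 0 with limma-voom), Acta1 was at 6.33, 0.265 and 85 FPKM and 0.205, 6.3 and 5.59 FPKM, so that hydrogel replicate 3 alone was high, and Ckm, Mylpf and Tpm2 gave -1.18, -1.44 and 0.61.

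Some genes of hypoxia and antioxidant defense were higher. Of 27 hypoxia and glycolysis genes 6 rose and 0 fell. The peptide hormone Adm (adrenomedullin) was at 1.39, 1.92 and 0.959 FPKM in hydrogel and 5.63, 5.62 and 5.33 FPKM in β-TCP, 3 tight values above 3 low ones (1.45 ± 0.31, SE). Ndrg1, Aldoa (aldolase) and Pdk1 rose by 1.03 ± 0.24, 0.80 ± 0.14 and 0.69 ± 0.17 (SE). Among antioxidant genes 3 of 20 rose: mitochondrial superoxide dismutase Sod2 by 1.42 ± 0.31, Prdx5 by 1.38 ± 0.34 and Gpx4, which detoxifies lipid peroxides, by 0.54 ± 0.13 (SE), with Sod2 at 0.52 in replicate 1 and 1.88 in the pair. The list's median of 0.11 turned with hemoglobin left out. In cholesterol synthesis 1 of 20 rose, a share near the 5.17% of all genes, and the median was -0.0048. Insig1, which restrains the pathway, rose from 19.6, 19.9 and 14.3 FPKM to 41.9, 47.5 and 43.9 FPKM, each β-TCP library at more than 2 times the highest hydrogel library (1.27 ± 0.15, SE; adjusted p = 0.0068, and 0.049 with the pair averaged). In iron handling 1 of 14 fell, the iron exporter Slc40a1 (ferroportin; -0.69 ± 0.15, SE), and the median of 0.16 turned with hemoglobin left out. The marrow niche list had 1 of 10 higher (5.17% of all genes were), Csf1, and a median of -0.38.

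Cell cycle genes were lower in β-TCP across the whole list, but few passed. All 49 mitotic genes had each β-TCP library below each hydrogel library (34.5% of all genes did), the median difference was -1.54, all 49 had an unadjusted p under 0.05, and 46 passed the fold rule (5.02% of all genes), yet 2 fell at the adjusted p. These 2 were Cdca5 (sororin, which holds sister chromatids together; -1.66 ± 0.41) and Cdc25c, the phosphatase that starts mitosis (-0.93 ± 0.22, SE). Cdc20, which activates the anaphase-promoting complex, was at 42.6, 36.1 and 73.3 FPKM in hydrogel and 21.5, 13.8 and 13.4 FPKM in β-TCP. Hydrogel replicate 3 was far above the others, and the β-TCP libraries were all lower than the lowest hydrogel library (-1.55 ± 0.54, SE; adjusted p = 0.087). Cdca8 (borealin, of the chromosomal passenger complex) was at 30.2, 22.7 and 47.5 FPKM and 15.3, 9.02 and 9.86 FPKM (-1.45 ± 0.52, SE; adjusted p = 0.094). Of 40 DNA replication genes, all had separate libraries, 39 had an unadjusted p under 0.05, 37 passed the fold rule and none passed the adjusted p with limma or limma-voom (median -1.37). The sliding clamp Pcna was at 247, 202 and 346 FPKM in hydrogel and 129, 86.5 and 91.8 FPKM in β-TCP, and Rrm1, a subunit of ribonucleotide reductase, at -1.34. By the fold rule without hydrogel replicate 3, 18 mitotic and 22 replication genes were called, and with the pair averaged 24 and 26. Without control replicate 3, all 49 and all 40 fell at the adjusted p.

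Promoters of Cdc20, Cdca8 and Cdc45 are shown for the motifs that cell cycle promoters are known to carry. In Cdc20 (chr5:137255800-137255949, - strand) and Cdca8 (chr5:142483200-142483349, - strand) the capitals mark the CHR element (TTTGAA) 51 and 94 bases before the start and CCAAT boxes (CCAAT, or ATTGG where read on the other strand), of which 1 in Cdca8 overlaps the CHR element by 1 base. In Cdc45, a helicase cofactor with a difference of -1.55, chosen after its values were seen (chr11:95690028-95690177, + strand), they mark the E2F site (TTTGGCG) 59 bases before the start and 4 CCAAT boxes.
Cdc20: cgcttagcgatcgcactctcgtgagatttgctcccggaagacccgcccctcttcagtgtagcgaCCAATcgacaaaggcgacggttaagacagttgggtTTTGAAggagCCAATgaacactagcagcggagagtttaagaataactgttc
Cdca8: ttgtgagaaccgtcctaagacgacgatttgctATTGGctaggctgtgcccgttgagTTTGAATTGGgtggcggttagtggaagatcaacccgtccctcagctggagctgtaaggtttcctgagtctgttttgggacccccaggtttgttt
Cdc45: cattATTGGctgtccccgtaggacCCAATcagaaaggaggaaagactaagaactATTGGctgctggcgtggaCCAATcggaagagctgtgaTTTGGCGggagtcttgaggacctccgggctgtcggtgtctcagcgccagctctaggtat

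Genes of red cells were lower in β-TCP, with a wide spread. Of 20 globin and heme genes, 16 had separate libraries on the lower side (34.5% of all genes did), with a median of -1.51. Of 25 further erythroid genes 24 did, with a median of -1.77. None passed the adjusted p by limma or limma-voom in all 12 libraries. At an unadjusted p under 0.05, 8 and 4 were lower (2301 of all 12633 genes were), and 6 and 4 passed the fold rule (5.02% of all genes). Hbb, β-globin, was at 26612, 11806 and 25813 FPKM in hydrogel and 9202, 3929.9 and 4077 FPKM in β-TCP, with hydrogel replicate 2 and β-TCP replicate 1 nearest to each other. Hba2 gave -1.96 ± 0.90, and Slc4a1 and Car1, a membrane transporter and a carbonic anhydrase of red cells, -2.07 ± 1.32 and -1.54 ± 1.27 (SE), each with a large standard error beside the difference. Globin genes are near-identical copies, and how the authors shared reads between them is not known. Megakaryocyte and platelet genes split: 6 of 12 had separate libraries on the lower side (34.5% of all genes did) and 3 had a positive difference. By the fold rule 7 were lower (5.02% of all genes), and 7 at an unadjusted p under 0.05. None passed the adjusted p by limma or limma-voom in all 12 libraries. Their summed level overlapped, at 324, 263 and 453 FPKM in hydrogel and 245, 443 and 472 FPKM in β-TCP. Itga2b, the platelet integrin αIIb, was at 8.58, 5.19 and 13.1 FPKM and 2.32, 1.09 and 1.07 FPKM, and the platelet chemokine Ppbp at -3.2 ± 1.19 (SE), whereas Pf4, a chemokine that macrophages make too, was at 195, 170.1 and 267 FPKM and 169, 393 and 421 FPKM.

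Most granulocyte genes were lower as well. Of 21 neutrophil genes 18 had separate libraries on the lower side (34.5% of all genes did) and 10 were lower by the fold rule (5.02% of all genes). At an unadjusted p under 0.05, 11 were lower, and none passed the adjusted p by limma or limma-voom in all 12 libraries. Mpo, the myeloperoxidase of primary granules, was at 65.7, 69.2 and 131 FPKM in hydrogel and 22.1, 6.4 and 6.37 FPKM in β-TCP, and Elane, neutrophil elastase, at 33.3, 47 and 77.4 FPKM and 11.7, 3.54 and 4.48 FPKM. Both were lowest in replicates 2 and 3, with replicate 1 between them and hydrogel (-2.98 ± 1.06 and -2.89 ± 0.86, SE; adjusted p = 0.092 and 0.068). S100a9 of mature neutrophils was at -1.54 ± 1.31 (SE). Lyz2, also in the macrophage list, was the 1 neutrophil list member with a positive difference (0.69). The summed level of the neutrophil list overlapped, at 7302.5, 7974 and 10708 FPKM in hydrogel and 4646, 8673 and 8710 FPKM in β-TCP. Eosinophil and mast cell genes had 14 of 17 apart on the lower side (34.5% of all genes were) and 11 lower by the fold rule (5.02% of all genes). At an unadjusted p under 0.05, 11 were lower, and 0 at the adjusted p by limma or limma-voom in all 12 libraries. Prg2, the eosinophil major basic protein, was at 169.9, 92.8 and 342 FPKM and 27.3, 13.8 and 13.7 FPKM, and Epx, eosinophil peroxidase, at -2.96. The mast cell proteases Cpa3, Cma1 and Tpsb2 were at -1.26 ± 0.45, -1.64 ± 0.59 and -1.7 ± 0.58 (SE).

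B cell genes had the lowest median of all lists, -2.68. All 23 had each β-TCP library below each hydrogel library, 20 were lower by the fold rule and 1 at the adjusted p, Cd24, which B cell precursors, neutrophils and epithelia express (131, 145 and 332 FPKM in hydrogel and 56.4, 11.3 and 11.2 FPKM in β-TCP; -3.18 ± 0.68, SE; adjusted p = 0.027). Cd79a, a subunit of the B cell receptor, was at 73.5, 71.6 and 142 FPKM and 21.4, 6.71 and 8.17 FPKM, hydrogel replicate 3 well above the other hydrogel libraries (-2.98 ± 1.03, SE; adjusted p = 0.087). Of 20 T and natural killer cell genes 1 rose, a share near that of all genes: Cd4, which macrophages of the rat also carry (1.12 ± 0.29, SE), and the defining markers Cd3e and Cd3d were at 0.03 and -0.31, Cd3e turning to below 0 with hemoglobin out of the total. Summed over each list, the lower levels ran in β-TCP from 170.1 to 384 FPKM for B cell genes and from 375 to 956 FPKM for erythroid membrane genes, against 1059.6 to 2249 and 1143 to 2507 FPKM in hydrogel. None of their defining markers was at 0 in any library. The part that a different share of marrow in the 2 tissues has in the differences of other genes was not tested, beyond the totals without hemoglobin given above. Without control replicate 3, 23 B cell, 25 erythroid and 16 neutrophil genes fell at the adjusted p, and without hydrogel replicate 3 none did. In a fit of the 6 compared libraries alone, 16 of 20 globin and heme, 25 of 25 erythroid and 7 of 12 megakaryocyte genes fell. So did 17 of 21 neutrophil and 13 of 17 eosinophil and mast cell genes. With β-TCP replicates 2 and 3 averaged, 0 genes of these lists fell at the adjusted p. The limma-voom fit used all 12 libraries and so their shared spread.

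The erythroid promoter shown is that of Rhd, a membrane protein of red cells with the lowest difference of its list (-2.15, chosen after its values were seen). The capitals mark the GATA site (AGATAA) 72 bases and an E2F site (TTTGGCG) 62 bases before the start (chr5:152371050-152371199, + strand).
Rhd: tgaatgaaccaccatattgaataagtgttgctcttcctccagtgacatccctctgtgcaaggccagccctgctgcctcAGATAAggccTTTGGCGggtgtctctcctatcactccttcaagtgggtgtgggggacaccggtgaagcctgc

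Single genes with the largest decreases at the adjusted p were, beside Cd24 and Cdca5, from several functions. They included Milr1, an inhibitory receptor of mast cells (-2.1 ± 0.53), Ccne2, the cyclin that starts DNA replication (-1.74 ± 0.40), Rmi2, a cofactor of the BLM helicase (-1.73 ± 0.40), and Ckap2l, a spindle protein (-1.67 ± 0.42, SE). Hspa2, a heat shock protein, was at 6.83, 7.76 and 14.4 FPKM in hydrogel and 2.48, 1.88 and 2.18 FPKM in β-TCP, and Fkbp5, which glucocorticoids induce, at 20.2, 28.2 and 41.8 FPKM and 10.3, 8.41 and 8.52 FPKM. Both were clearly apart, with hydrogel replicate 3 highest. Bcl7a and Cbx2, of chromatin complexes, were at -1.75 and -1.62, and Sapcd1, Hip1r and Sowaha were at -2.06, -1.55 and -1.54. Cd79al (-1.7), a locus named for its likeness to Cd79a, and LOC100361706 (-2.12) complete the 15.

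The promoters of the gene groups were searched for these motifs on both strands in the 250 bases before the start, in 9420 tested genes with a RefSeq promoter. The CHR element (TTTGAA) was in 21 of 43 mitotic genes (48.8%), against 10.5% of all tested genes and 4402 of all 27457 promoters. CCAAT was in 65.1% of mitotic and 63.3% of DNA replication genes, against 35.5% of tested genes. The E2F site (TTTGGCG) was in 7 of 30 DNA replication genes (23.3%) and none of the 43 mitotic genes, against 2.08%. AGATAA was in 6 of 18 erythroid membrane and transcription factor genes (33.3%), against 5.47%. In the other lists searched it ran from 0 of 43 mitotic to 3 of 13 V-ATPase promoters (23.1%), with 2 of 14 for globin and heme genes (14.3%). Lysosomal genes held the E-box (CACGTG) in 6 of 27 promoters (22.2%), against 8.04%, and its extension TCACGTGA in 2 (7.41%), against 1.51%. The extension was as frequent in V-ATPase promoters (1 of 13, 7.69%) and DNA replication promoters (2 of 30, 6.67%), and absent from osteoclast and macrophage promoters. The AP-1 site (TGANTCA) was in 6.56% of the 488 genes that rose with a promoter, against 4.42% of tested genes. Among all promoters its share was 6.36%, near that of the genes that rose, and it was in 0 of 13 osteoclast promoters. The M-box (TCATGTGA) was in 17 of the 488 (3.48%), against 0.796% of tested genes and 0.965% of all promoters. TCACGTGA contains CACGTG, and none of the other motifs contains another. The E2F site and the M-box were added after the other shares were seen. A match is a string of letters in this window.

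The empty defect and the PCL scaffold are set beside these values as a description, since all differences below share the hydrogel libraries. For osteoclast genes the median difference from hydrogel was 1.15 in β-TCP, 0.23 in PCL and 0.21 in the empty defect, and for V-ATPase subunits 1.11, 0.30 and 0.14. Ctsk was at 3074, 3418 and 2359 FPKM in PCL and 3118, 2157 and 3579.7 FPKM in control, all below the β-TCP libraries. Lipid genes stood between, at 1.16, 0.85 and -0.18. Mmp12 in PCL lay around the level of β-TCP replicates 2 and 3, at 850, 504 and 367 FPKM, and low in control, at 20.7, 24.5 and 36.5 FPKM, and Gpnmb was at 1617, 1127 and 948 FPKM in PCL. Il1b reached the level of β-TCP replicates 2 and 3 in neither group, with 18.3, 18.4 and 19.9 FPKM in PCL and 18.3, 11.8 and 2.15 FPKM in control. Mitotic genes were at -1.54 in β-TCP, -0.19 in PCL and -1.08 in control, and erythroid genes at -1.77, 0.40 and -1.79. The control libraries spread widely for both, with Hbb at 8373, 15881 and 1082 FPKM and Cdc20 at 29, 49.4 and 8.02 FPKM, replicate 3 being the lowest. Cartilage genes were highest in control, 3.23 above hydrogel, with Col2a1 at 1298, 1370.5 and 9071 FPKM, and all hydrogel and β-TCP libraries lay below these.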

How the data were processed

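RNA of defect tissue was sequenced in 12 libraries, 3 per group, grouped by the sample labels. The deposited values are FPKM per gene. The authors made them with Cufflinks after Trimmomatic trimming and HISAT2 alignment of the reads. HTSeq, DESeq, Bowtie and StringTie stand in the submitters' processing notes too, beside the build Rnor_6.0, all without version numbers. The study's methods name a VAHTS kit and NovaSeq sequencing, the labels a stranded TruSeq kit and HiSeq, and which applies is not known. Of the deposited columns, 3 match no sample label and were not used.

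Differences on the log2(FPKM + 1) scale were tested with limma 3.58.1 (R 4.3.3) in 1 fit of all 12 libraries with 1 mean per group (8 residual degrees of freedom) and empirical Bayes moderation with a trend. Tests were two-sided, and p-values were adjusted by Benjamini-Hochberg over the 12633 genes at or above 1 FPKM in 3 or more libraries. The fit was tested on simulated data. Whole fragments were recovered from the steps of the FPKM values (17940 of 17942 genes, within 0.01 fragments), which gave the depths and a limma-voom alternative. Of 893 symbols in 42 gene lists, 883 matched by symbol, 5 by gene ID and 5 not. Named genes were the 15 largest changes in each direction with an adjusted p under 0.05 and separate libraries, up to 4 called members per list (or else its 2 most abundant members), genes that the paper names for these scaffolds and 2 defining markers per cell type. A few of these genes are not reported here. The comparison, lists and rules were chosen with earlier results of these data known. Promoters came from RefSeq (GRCr8), another build than that of the files, whose coordinates were not used. Alternatives were other pseudocounts, filters, scalings and weights, a replicate block, fits of fewer libraries and each library left out. Python 3.11.15, pandas 2.3.3, scipy 1.17.1 and matplotlib 3.10.9 were used for summaries and plots.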

Additional observations from a re-analysis of the deposited data

How the results depend on the processing

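The count of 775 genes at an adjusted p under 0.05 rose to 1348 with median-of-ratios scaling, 1538 with quantile normalization, 4251 in a fit of the 6 libraries alone (1605 higher and 2646 lower) and 7445 with weights per library, and fell to 16 with β-TCP replicates 2 and 3 averaged. The estimate of those weights did not converge, and control replicate 1 took a weight of 40.6. Leaving out 1 library gave 7 to 4736 genes at the adjusted p and 470 to 1397 by the fold rule. Other pseudocounts, filters on low values, no trend, limma-voom on recovered fragments (658 genes, of which 644 were among the 775), and hemoglobin (524) or skeletal muscle (774) out of the total kept the count within 1.5 times, and the fold rule's 1059 stayed within 1.5 times except without hydrogel replicate 3. The median difference of all genes moved from -0.06 to -0.0093 with no filter, 0.0063 with median-of-ratios scaling, 0.014 with quantile normalization and -0.21 with hemoglobin left out. Deviations from the group mean in same-numbered hydrogel and β-TCP libraries had correlations of 0.031, 0.33 and -0.27. Such deviations sum to 0 within a group, and β-TCP replicates 2 and 3 were nearly alike. The correlations therefore cannot settle whether the numbers pair libraries. With the replicate number as a replicate block 360 genes passed, 357 of them among the 775. No named gene with an adjusted call turned its direction in any setting, but 87 of these 92 lost the call with the pair averaged, 91 without β-TCP replicate 2 and 68 without hydrogel replicate 3. The cause of these shifts was not tested. The depth was 15036447 to 17358370 fragments per library, and how counting error compares with the spread between libraries was not tested.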
